A study of Homo sapiens with 4 samples.

Results

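The activin system in HLE cells was followed through 10 genes: the activin beta subunit genes INHBA, INHBB and INHBE, the follistatin family genes FST, FSTL1 and FSTL3, and the receptor genes ACVR1, ACVR1B, ACVR2A and ACVR2B. The list was selected by gene family, out of 20286 gene identifiers in the count files, with the contrast between CYR61 and Vector cells already known. Its members' changes in that contrast are therefore given as a description. No p-value is printed for any member, though calls at a threshold are named. HLE is an established human hepatocellular carcinoma line. The Vector group is HLE cells with stable expression of the vector alone, and the CYR61 group is HLE cells with stable expression of CYR61, a secreted matrix-associated protein whose current symbol is CCN1. Both groups were grown with 10% fetal bovine serum and had no further treatment. Each group has 2 libraries, named Vector 1, Vector 2, CYR61 1 and CYR61 2 here, which the series' design text describes as separate cultures of the whole stable population. On that reading the spread within a group is between cultures, and no source used here says whether a stable population was made more than once.

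Activins are secreted dimers of beta subunits, members of the TGF-beta superfamily. They bind a type II receptor, which recruits and phosphorylates a type I receptor, and the type I receptor kinase then phosphorylates SMAD2 and SMAD3, which move with SMAD4 to the nucleus. Follistatin and the related protein FSTL3 bind activins outside the cell and keep them from their receptors. In the liver, INHBE and INHBC are expressed mainly by hepatocytes, activin A (a dimer of the INHBA product) restrains hepatocyte growth, and follistatin is a circulating product of hepatocytes.

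The libraries held 16186988 to 21588822 estimated counts. Values below are CPM, counts divided by a library size scaled by TMM (trimmed mean of M-values), and log2 fold changes are CYR61 minus Vector from edgeR's quasi-likelihood fit over 12698 tested genes. A gene is named called where its Benjamini-Hochberg adjusted p over all tested genes was below 0.05. CYR61 itself checked the labels: it measured 221 CPM in Vector 1, 218 in Vector 2, 8090 in CYR61 1 and 8620 in CYR61 2. The hepatocyte markers ALB, APOB and TTR had 0 counts in the 4 libraries and AFP had at most 1 count. The epithelial keratins KRT8 and KRT18 were at 1050 CPM or more in each library. Other liver tumour and epithelial markers were low, with KRT19 at no more than 2 counts, GPC3 at 0 and EPCAM at 0.319 to 1.36 CPM. The summed level of 12 hepatocyte markers was 23.7 to 25.5 CPM in Vector and 39.1 to 43.4 CPM in CYR61, with FGA and FGB called higher. Mean CPM went from 5.43 in Vector to 19.5 in CYR61 for FGB, and from 1.87 to 6.81 for FGA. The other 3 tested hepatocyte markers were not called, at log2 fold changes of -0.41 (HNF4A), -0.13 (TF) and -0.05 (SERPINA1). The summed levels of 12 fibroblast and stellate cell markers were 41.9 to 51.1 and 41.3 to 42.9 CPM, with PDGFRA and LRAT at 0. Among these DCN was called higher, from 0.637 and 0.544 CPM to 3.68 and 2.26 CPM. The counts of LUM were 0 and 0 under Vector but 13 and 2 under CYR61. The other 6 tested markers of that list were not called. Their log2 fold changes were -0.71 (ACTA2), -0.37 (DES), -0.36 (PDGFRB), -0.20 (COL1A1), 0.12 (THY1) and 0.38 (RGS5). The sums of 8 endothelial markers were 1.99 to 2.6 and 2.56 to 2.63 CPM, with KDR, CLEC4G and EMCN at 0. For 8 blood and Kupffer cell markers they were 64 to 68.5 and 49.6 to 54.4 CPM, nearly all of it CD68, with CD163, VSIG4 and CD3E at 0. The part of these markers in the results below was not tested. In RNA from whole cultures, fewer cells of a type and less RNA per cell cannot be told apart.

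Among the 10 members, 3 were called lower in CYR61 cells (INHBA, INHBE and FST), none was called higher, 6 were tested and not called, and INHBB had too few counts to be tested. At an unadjusted edgeR p under 0.05, 4 members (the 3 called and ACVR1) were lower and 1 (FSTL3) was higher, and DESeq2 and limma-voom called 0 members higher. Over all tested genes, 6.39% were called in either direction, 4.56% lower and 1.83% higher. These percentages stand beside the count of called members only as a scale, since the members were chosen with this contrast in view. They hold at the adjusted threshold, and no share of all tested genes at the unadjusted cut is given here. The plot of CPM by library shows the 10 genes at 0.125 to 259 CPM, and the plot of changes with intervals shows the 3 called genes to the left of the others.

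**Figure D1:**
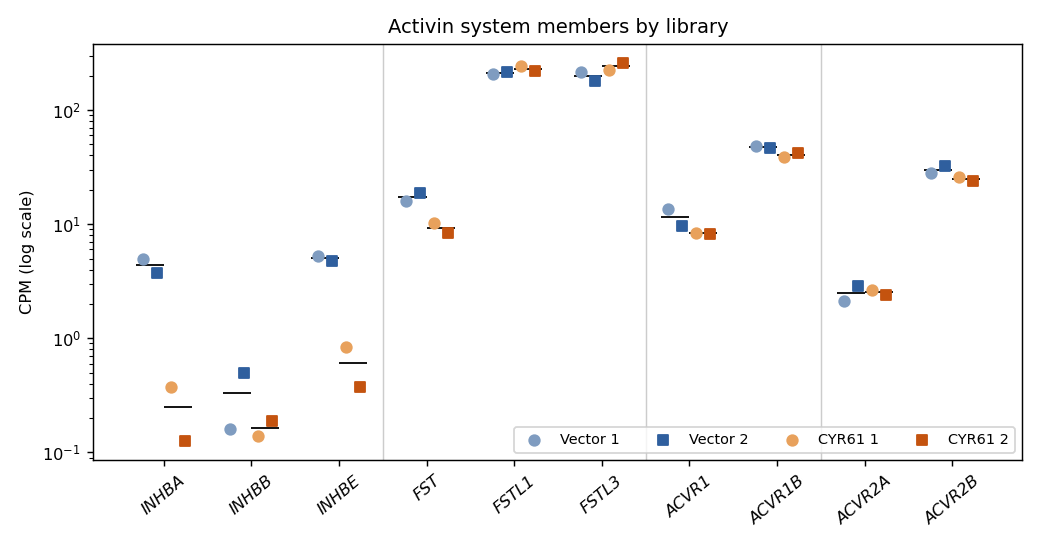
CPM on a log axis for each of the 10 members in the 4 libraries, ordered as beta subunits, follistatin family, type I receptors and type II receptors; points are single libraries and short bars are the means of 2 libraries. INHBA, INHBE and FST sit lower in both CYR61 libraries, while INHBB and ACVR2A overlap between groups.

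The beta subunit INHBA encodes the chain of activin A, and it had the largest decrease of the members. Its estimated counts were 94 in Vector 1, 82 in Vector 2, 8 in CYR61 1 and 2 in CYR61 2, which gave 4.99, 3.71, 0.372 and 0.125 CPM. Both CYR61 libraries lay far below both Vector libraries, at means of 4.35 ± 0.902 CPM in Vector and 0.249 ± 0.175 CPM in CYR61 (SD, n = 2 each). The fitted log2 fold change was -4.00 (SE 0.45, 95% interval -4.99 to -3.01), a 16-fold lower level. INHBA ranked 5 among the tested genes from the lowest log2 fold change, and 99.9% of them had a smaller change in either direction. With so few counts left in CYR61 cells, the counting error is wide: summed counts were 176 against 10, a Vector to CYR61 ratio of 16.1 with an exact 95% interval of 8.56 to 34.2, which covers counting error only. Leaving out CYR61 1 moved the log2 fold change to -5.03. The gene lies on the minus strand at chr7:41667168-41705834 (GRCh38, GENCODE 29).

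The 250 bases upstream of the RefSeq start of INHBA are shown because it is the member with the largest change and this window held 3 of the 8 motifs searched. The window is chr7:41703091-41703340 on the minus strand (RefSeq, GRCh38.p14), printed 5′ to 3′, with a cAMP response element-like match and a TATA box match in capitals.
INHBA upstream: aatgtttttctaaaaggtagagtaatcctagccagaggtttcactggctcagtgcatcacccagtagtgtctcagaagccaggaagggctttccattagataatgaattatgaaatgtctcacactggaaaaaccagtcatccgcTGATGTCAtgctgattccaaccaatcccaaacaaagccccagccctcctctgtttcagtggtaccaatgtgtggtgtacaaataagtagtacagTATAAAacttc
It lies inside the GENCODE 29 model of the gene, which extends further upstream, and 18 of its bases are exonic there. A CRE-like motif, searched as TGANGTCA on both strands, matched as TGATGTCA with its first base 105 bases before the start. This motif is bound by factors of the CREB and ATF families, and it was present in 6.87% of 35116 RefSeq upstream windows of this length. The TATAAA letters began 11 bases before the start and were present in 10.7% of the windows. The CCAAT pentamer, which is left in lower case, matched at 85 and 42 bases before the start and was present in 32% of the windows. None of the AP-1 (TGANTCA), SMAD box (CAGAC), hypoxia response (ACGTG), TEAD (CATTCC) or C/EBP-ATF composite (TGATGNAA) letters was found in this window on either strand. The motifs were chosen after the letters had been seen, and a match is a description of the letters and not of binding. Promoter windows were found for 9 of the 10 members, and INHBE had none.

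INHBE encodes the activin E chain, a hepatokine known for its action on fat storage in adipose tissue. It was at 5.31 CPM in Vector 1, 4.76 in Vector 2, 0.837 in CYR61 1 and 0.376 in CYR61 2, from estimated counts of 100, 105, 18 and 6. As with INHBA, each CYR61 library was below each Vector library. Group means were 5.03 ± 0.39 and 0.607 ± 0.326 CPM (SD, n = 2 each), and the log2 fold change was -2.98 (SE 0.36, 95% interval -3.78 to -2.18), a 7.88-fold lower level. It ranked 15 among the tested genes from the lowest log2 fold change. Summed counts were 205 against 24, a ratio of 7.82 with an exact 95% counting interval of 5.11 to 12.5. Without CYR61 1 the log2 fold change was -3.71. The gene lies at chr12:57452323-57459280 on the plus strand, and its exons shared no base with another GENCODE 29 gene model.

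INHBB, the chain of activin B, was close to the limit of detection in both groups. Its counts were 3 in Vector 1, 11 in Vector 2, 3 in CYR61 1 and 3 in CYR61 2, or 0.159, 0.498, 0.14 and 0.188 CPM. The groups overlapped, and a single library, Vector 2, held most of the Vector counts. Summed counts of 6 in CYR61 and 14 in Vector gave a ratio of 0.468 with an exact 95% interval of 0.147 to 1.3, so a difference was not detectable at this depth. The gene lies at chr2:120346143-120351808 on the plus strand.

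**Figure D2:**
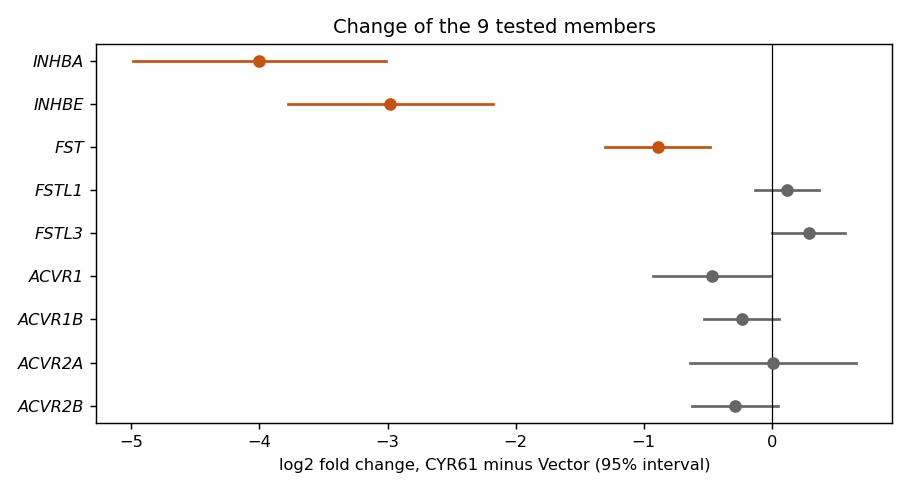
Log2 fold change of the 9 tested members, CYR61 minus Vector, with 95% intervals from the edgeR fit; coloured points are called and grey points are not. The intervals of INHBA (-4.99 to -3.01) and INHBE (-3.78 to -2.18) lie wholly below that of FST (-1.30 to -0.48).

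Among the follistatin family, FST fell and its relatives did not pass the test. FST encodes follistatin, the secreted antagonist that wraps around an activin dimer and covers its receptor-binding faces. It was at 16 CPM in Vector 1, 18.8 in Vector 2, 10.3 in CYR61 1 and 8.4 in CYR61 2. Each CYR61 library was below each Vector library, with means of 17.4 ± 1.99 and 9.34 ± 1.33 CPM (SD, n = 2 each). The log2 fold change was -0.89 (SE 0.18, 95% interval -1.30 to -0.48), a 1.86-fold lower level, and 95.1% of the tested genes changed less. FST did not pass the threshold when Vector 2 was left out, where its log2 fold change was -0.76 (SE 0.26). It lies at chr5:53480409-53487134 on the plus strand.

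FSTL3 encodes a follistatin-like antagonist that also binds activins but, unlike follistatin, lacks a heparan sulfate-binding site. Its level was 215 CPM in Vector 1, 181 in Vector 2, 224 in CYR61 1 and 259 in CYR61 2. Both CYR61 libraries were above both Vector libraries, though CYR61 1 exceeded Vector 1 by less than the Vector libraries differed from each other. Means were 198 ± 24.2 and 241 ± 24.5 CPM (SD, n = 2 each), and the log2 fold change was 0.29 (SE 0.13, 95% interval 0.00 to 0.57), which was not called. FSTL3 has a GC content of 64.4%, the highest of the members, and part of the difference between libraries of 1 group followed GC content (across 10406 genes, as a description, Spearman correlations with GC of -0.73 for Vector 2 less Vector 1 and of -0.78 for CYR61 1 less CYR61 2). The GC trend was removed in each library against the mean of the 4 libraries, which also took out a trend between groups. Across the same genes, the Spearman correlation of GC with the group log2 fold change was -0.17. With the trend removed, the log2 fold change of FSTL3 was 0.46 (SE 0.06) and it was called higher. In that setting 28.7% of all tested genes were called in either direction. The gene lies at chr19:676365-683399 on the plus strand.

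FSTL1 is a secreted glycoprotein with a follistatin domain that is not a high-affinity activin trap and is better known as a matrix and mesenchymal product. It measured 209 CPM in Vector 1, 216 in Vector 2, 242 in CYR61 1 and 220 in CYR61 2. The CYR61 libraries were both higher, by a margin smaller than the spread between them, with a log2 fold change of 0.12 (SE 0.11, 95% interval -0.13 to 0.37). The interval leaves out a change as large as that of FST in either direction. FSTL1 lies at chr3:120392293-120451253 on the minus strand, and 3.62% of its exon bases are shared with the antisense pseudogene BTNL12P.

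No receptor gene passed the test. Of the type I receptors, ACVR1B (ALK4) is the kinase that carries activin signals to SMAD2 and SMAD3. It was at 48.5 CPM in Vector 1, 46.4 in Vector 2, 38.4 in CYR61 1 and 42.4 in CYR61 2. The libraries of the groups did not overlap, with means of 47.5 ± 1.51 and 40.4 ± 2.85 CPM (SD, n = 2 each) and a log2 fold change of -0.23 (SE 0.13, 95% interval -0.53 to 0.06). ACVR1 (ALK2) mainly carries bone morphogenetic protein signals and can hold activin A in a complex that does not signal. Its levels were 13.5 CPM in Vector 1, 9.6 in Vector 2, 8.42 in CYR61 1 and 8.27 in CYR61 2. The Vector libraries differed from each other by more than Vector 2 differed from either CYR61 library. The log2 fold change of ACVR1 was -0.47 (SE 0.21, 95% interval -0.93 to -0.01), and it ranged from -0.69 to -0.20 over the alternative analyses. ACVR1 lies on the minus strand at chr2:157736444-157875862, and ACVR1B on the plus strand at chr12:51951667-51997078.

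The type II receptors ACVR2A and ACVR2B bind activins, myostatin and several bone morphogenetic proteins. ACVR2B was at 28.1 CPM in Vector 1, 32.2 in Vector 2, 25.7 in CYR61 1 and 23.7 in CYR61 2. Each CYR61 library was below each Vector library, and the log2 fold change of -0.29 (SE 0.15, 95% interval -0.62 to 0.05) was not called. ACVR2A was at 2.12 CPM in Vector 1, 2.85 in Vector 2, 2.65 in CYR61 1 and 2.38 in CYR61 2. Both CYR61 values of ACVR2A lay between the Vector values, and its log2 fold change was 0.01 (SE 0.29, 95% interval -0.64 to 0.66). The sign of that value turned with the choice of library left out. ACVR2A (chr2:147844517-147930826, plus strand) shares 430 exon bases, 6.35% of its exons, with the antisense gene ORC4, whose estimated counts were 323.83 to 534.73 per library. Its values are uncertain for that reason, since no source used here says whether the counting used strand. ACVR2B lies at chr3:38453851-38493142 on the plus strand.

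The libraries of 6 members were lower in CYR61 without overlap (INHBA, INHBE, FST, ACVR1, ACVR1B and ACVR2B), where 27.7% of all tested genes showed the same. For FSTL1 and FSTL3 both CYR61 libraries were higher, where 23.9% of all tested genes showed the same. The 9 tested members had a median log2 fold change of -0.29, with 6 below 0, against -0.01 over all tested genes, of which 50.8% were below 0. Counts and median alike describe genes chosen on this contrast. With 2 libraries in each group, an exact two-sided permutation test of a single gene cannot go below p = 0.333.

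Levels of different members can be compared only per length, so CPM was divided by the kilobases of merged exons. In Vector cells the order from the highest was FSTL3 at 64.4, FSTL1 at 24.4, ACVR1B at 8.34, FST at 5.86, ACVR1 at 2.9, ACVR2B at 1.91, INHBE at 1.67, INHBA at 0.524, ACVR2A at 0.368 and INHBB at 0.103 CPM per kb. No pair of neighbours in that order overlapped between its Vector libraries. In CYR61 cells the first 6 places were held by the same genes in the same order, from FSTL3 at 78.7 to ACVR2B at 1.57 CPM per kb. Below them the order became ACVR2A at 0.372, INHBE at 0.201, INHBB at 0.0511 and INHBA at 0.03 CPM per kb. There INHBB and INHBA did not differ beyond their spread. The antagonist FSTL3 was thus the most abundant member in both groups, and the beta subunits were among the lowest. The order was the same with the longest transcript in place of merged exons.

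Summed over the 3 beta subunits, the level per length was 2.41 CPM per kb in Vector 1, 2.18 in Vector 2, 0.366 in CYR61 1 and 0.198 in CYR61 2. INHBE made up 62.8% to 75.9% of this sum in every library, so it was the main beta subunit transcript in both groups. INHBA contributed 24.9% in Vector 1 and 20.5% in Vector 2, but 12.2% in CYR61 1 and 7.61% in CYR61 2. The level of INHBE per length was 2.93 and 3.53 times that of INHBA in the Vector libraries, against 6.2 and 8.26 times in those of CYR61. The latter pair rests on 8 and 2 INHBA counts.

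The antagonists FST and FSTL3 together were at 75.4 CPM per kb in Vector 1, 65.2 in Vector 2, 76.5 in CYR61 1 and 87.2 in CYR61 2. FSTL3 made up 90.3% to 96.8% of this sum in every library. FSTL3 exceeded FST in level by 13 and 9.3 times in the Vector libraries, against 21.1 and 29.8 times in those of CYR61. Set against the beta subunits, the summed antagonist level was 31.3 and 29.9 times the beta subunit level in the Vector libraries. It was 209 and 439 times that level in the CYR61 libraries, and the difference between groups came mostly from the beta subunit side of the ratio. These are transcript ratios, and protein was not measured.

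**Figure D3:**
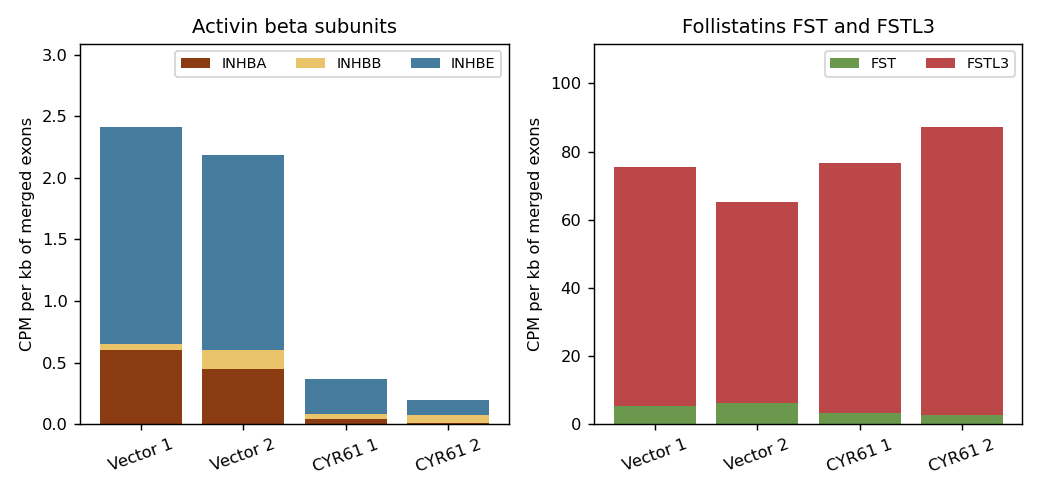
Stacked bars of CPM per kb of merged exons in each library for the beta subunits INHBA, INHBB and INHBE (left) and the antagonists FST and FSTL3 (right), with separate axes starting at 0. The beta subunit bars drop from 2.41 and 2.18 in Vector to 0.366 and 0.198 in CYR61, while the antagonist bars stay between 65.2 and 87.2.

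The proportions among the receptors were similar in the 4 libraries. ACVR2B supplied 80.6% to 85.1% of the type II receptor level and ACVR1B supplied 71.5% to 78.2% of the type I level in every library. The type II sum was 2.1 and 2.46 CPM per kb for Vector, against 2.02 and 1.86 for CYR61. For type I it was 11.9 and 10.6, against 8.86 and 9.53 CPM per kb. Both sums were lower in CYR61 without overlap, by far less than the beta subunit sum.

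The alternative analyses, plotted for each tested member, left INHBA between -5.03 and -3.52 and INHBE between -3.71 and -2.58 on the log2 scale. Both were called in each of the 16 alternatives in which they were tested. FST ranged from -1.04 to -0.76 and was called in 16 of 17. ACVR1B ranged from -0.30 to -0.15, ACVR2B from -0.38 to -0.18, FSTL1 from 0.06 to 0.19 and FSTL3 from 0.17 to 0.46, each on 1 side of 0 throughout.

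**Figure D4:**
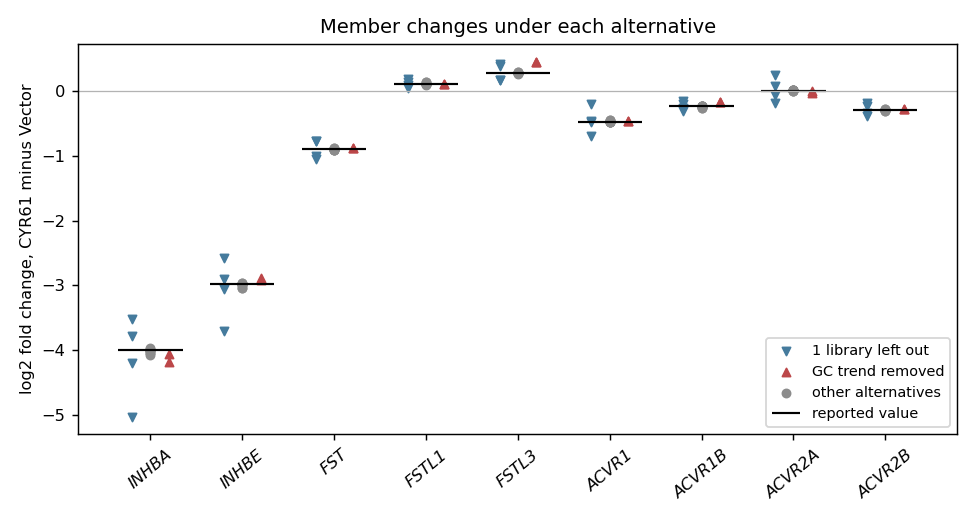
Log2 fold change of each tested member under the alternative analyses (points) and as reported (bars); blue triangles leave out 1 library, red triangles remove the GC trend and grey points are the other scalings, filters, tools and designs. INHBA spreads widest, from -5.03 to -3.52, and ACVR2A is the member whose points fall on both sides of 0.

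The rest of the activin system was described through 27 further genes for subunits, ligands, receptors, co-receptors, processing enzymes and antagonists. Of these, 15 were tested, 2 were called lower and none higher, beside 4.56% called lower and 1.83% called higher among all tested genes. Their median log2 fold change was -0.20, against -0.01 over all tested genes. At an unadjusted edgeR p under 0.05, 3 were lower and 1 (BAMBI) was higher, without a share of all tested genes at that cut. WFIKKN1, a secreted protease inhibitor-like protein that binds myostatin and GDF11, fell from 27.7 and 22.9 CPM to 10.1 and 13 CPM, and its log2 fold change was -1.13 (SE 0.18; adjusted p = 0.00618 in edgeR). SMOC1, a matricellular protein with a follistatin-like domain that inhibits bone morphogenetic protein signalling, fell from 503 and 509 CPM to 248 and 290 CPM (log2 difference -0.91, SE 0.12; adjusted p = 0.00176 in edgeR). In both genes the groups were far apart relative to the spread within them.

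The 3 genes of that list with the highest CPM, not divided by length, that were not called were FURIN, FSTL4 and PCSK6. FURIN, a convertase that cleaves TGF-beta family precursors, was at 403 and 353 CPM in Vector and 300 and 343 CPM in CYR61 (log2 difference -0.23, with an adjusted p of 0.283 in edgeR). FSTL4 was at 166 and 154 against 103 and 126 CPM, with a log2 fold change of -0.48 and an edgeR adjusted p of 0.0533. It lay next to the threshold, and it was called lower with DESeq2, with either other filter, with the GC trend removed and without CYR61 2. PCSK6, another convertase, had a log2 fold change of 0.13 (edgeR adjusted p = 0.566) and was called higher (0.23) with the GC trend removed. A further 12 genes of the list were not tested. INHA, the inhibin alpha chain that turns a beta chain into an inhibin, had 6 to 11 counts per library, and the ALK7 receptor gene ACVR1C had at most 1. INHBC, the beta chain most like INHBE, had 6, 6, 11 and 9 counts, and its log2 fold change of 0.85 was not called. BAMBI, a decoy receptor without a kinase domain, was at 11.1 and 9.51 CPM under Vector and 13.1 and 16.8 CPM under CYR61. Its log2 fold change of 0.53 (SE 0.19) was not called, though it was called higher with the GC trend removed and without CYR61 1. These genes were chosen for mention after their values were seen. With the GC trend removed, 28.7% of all tested genes were called in either direction, against 6.39% in the reported fit. GDF3, GDF1, TDGF1, CFC1, FSTL5, WFIKKN2 and PCSK5 had 0 counts in the 4 libraries. TDGF1 and CFC1 encode the co-receptors that nodal requires.

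Inside the cell, 24 genes of SMAD2 and SMAD3 signalling were followed, of which 22 were tested. Only PMEPA1 was called lower and none was called higher, a share close to the 4.56% called lower among all tested genes. At an unadjusted edgeR p under 0.05, 5 were lower and 0 higher, again without a share of all tested genes at that cut. The median log2 fold change of the list was -0.18. PMEPA1, a membrane protein induced by TGF-beta and activin that sequesters SMAD2 and SMAD3, fell from 89.9 and 87.3 CPM to 51.3 and 59.5 CPM (log2 difference -0.68, SE 0.13; adjusted p = 0.0124 in edgeR). It did not pass without CYR61 1 (log2 fold change -0.56, edgeR adjusted p = 0.0541). The genes of highest CPM that were not called were STRAP, DAB2 and FKBP1A, with log2 fold changes of 0.15, -0.07 and 0.07. FKBP1A encodes the immunophilin that holds type I receptors inactive. The receptor-activated SMAD2 had a log2 fold change of -0.35 and was not called. It was called lower with the GC trend removed, where 28.7% of all tested genes were called in either direction. It was chosen for mention after its value was seen.

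Genes that textbook accounts name as raised by activin or nodal through SMAD2 and SMAD3 made up the last list, with 18 symbols and 12 tested. Of these, 7 were called lower and none higher, beside 4.56% and 1.83% of all tested genes. The median log2 fold change was -0.71, against -0.01 over all tested genes. In this list too, 0 genes were higher at an unadjusted edgeR p under 0.05, and neither DESeq2 nor limma-voom called a gene of any of these lists higher. Several of them were known from earlier results of these data to be lower, and PMEPA1, SMAD7 and SKIL are also in the SMAD list, so the count is not independent evidence of a direction. All 7 also respond to other signals, TGF-beta among them. CDKN1A, which encodes the cell cycle inhibitor p21, fell from 86.4 and 82.4 CPM to 26.1 and 25.9 CPM (log2 difference -1.70, with an adjusted p of 0.000103 in edgeR). For CDKN2B, another inhibitor of the cell cycle, the log2 fold change was -1.01 (edgeR adjusted p = 0.00226).

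The transcription factor gene JUNB fell by 0.97 on the log2 scale (edgeR adjusted p = 0.00264), and 14.2% of its exon bases are shared with the antisense gene HOOK2. ID1 is a classical target of bone morphogenetic proteins and so fits the definition of the list less well. It is nonetheless counted among the called genes of the list and in its median. ID1 fell from 178 and 158 CPM to 91.5 and 111 CPM (log2 difference -0.73, with an adjusted p of 0.0101 in edgeR). LTBP2, an extracellular matrix protein, had a log2 fold change of -0.74 (edgeR adjusted p = 0.0395). That call was lost with DESeq2 (adjusted p = 0.0584) and without Vector 1, Vector 2 or CYR61 1, where the edgeR adjusted p was 0.207, 0.0565 and 0.122. The SMAD feedback genes SMAD7 and SKIL did not pass, at log2 fold changes of -0.21 (edgeR adjusted p = 0.454) and -0.22 (edgeR adjusted p = 0.563). CCN2, in the same CCN family as CYR61, was at 0.23 (edgeR adjusted p = 0.402). MIXL1, GSC and FSHB, targets in the embryo and the pituitary, had 0 counts in the 4 libraries. The plot by list places these genes beside the members and the spread of all tested genes.

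**Figure D5:**
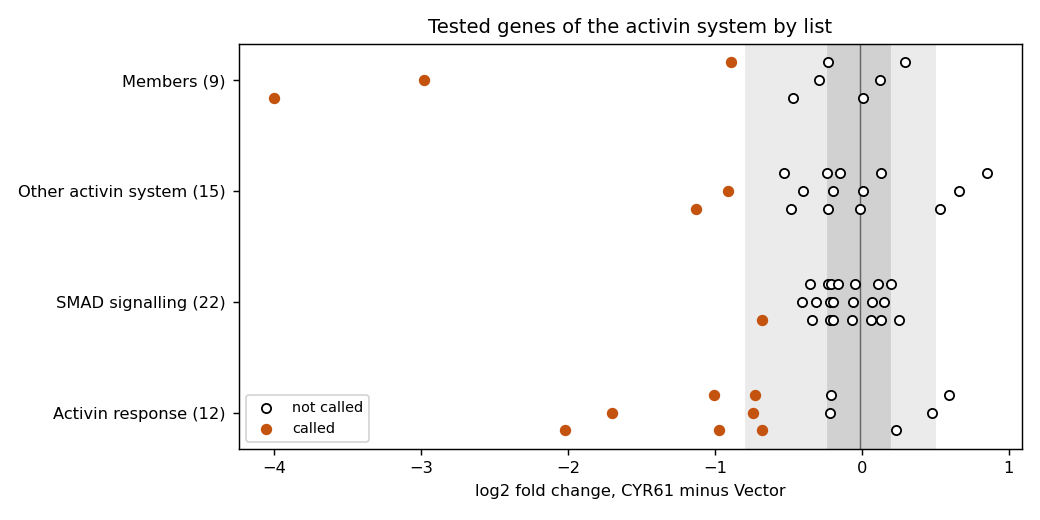
Log2 fold change, CYR61 minus Vector, of each tested gene in the members and the 3 other lists, with filled points called and open points not; the light band spans the 5th to 95th percentile of all tested genes, the dark band the 25th to 75th, and the line their median. The 3 called members, 2 called genes of the wider system and 7 called response genes lie left of the dark band, and no called gene lies to the right of 0.

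The genes whose pattern over the 4 libraries was most like that of INHBA were STC1, RSAD2, INHBE, HERC3 and KLHDC7B, in that order. Likeness was the Euclidean distance between centred log2 CPM values (prior count 2) over 4 libraries, and it is a description because the contrast between groups dominates it. STC1, the secreted glycoprotein stanniocalcin 1, was nearest at a distance of 0.599 (with a prior count of 0.5, RSAD2 was nearest and STC1 next), with 6.74, 6.57, 0.651 and 0.439 CPM. RSAD2, an interferon-inducible antiviral protein, followed at 0.753 with 1.86, 1.36, 0.14 and 0.0627 CPM. INHBE came next at 0.834, while INHBA was not among the 5 nearest genes of INHBE. The HERC3 entry, at 0.906, had 0 counts in both CYR61 libraries. It is 1 of 2 identifiers that carry the symbol and is not in GENCODE 29, so its identity is uncertain. For INHBE the nearest genes were KLHDC7B at 0.181, RSAD2 at 0.384, ANGPTL4 at 0.509, STC1 at 0.591 and ULBP1 at 0.602. KLHDC7B was at 3.93, 3.85, 0.605 and 0.313 CPM. ANGPTL4, which inhibits lipoprotein lipase, was at 32.5, 25.5, 4.42 and 3.57 CPM, and ULBP1, a ligand of the NKG2D receptor of natural killer cells, was at 5.73, 6.3, 1.3 and 0.814 CPM.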

How the data were processed

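RNA of HLE cells was sequenced in 4 libraries. Per the submitters' processing notes, reads were handled on build hg38 by tools that include TopHat2 2.1.1, Cuffdiff 1.3.0 and Cufflinks 2.2.1. The authors deposited estimated counts per Ensembl gene, of which 11.2% to 12% per library were not whole; no source used here gives the counting program, annotation release or strandedness. Counts were rounded, filtered by filterByExpr (12698 genes tested, 7588 not), scaled by TMM and fitted in R 4.3.3 with edgeR 4.0.16, with group as the only term and a Benjamini-Hochberg threshold of 0.05. The fit was tested on simulated data. Totals ranged from 16186988 to 21588822 counts, and count intervals (95%) cover counting error only. Symbols matched 20228 of 20286 identifiers, and GENCODE 29 held 20212. Exon lengths and GC content came from GENCODE 29 and promoter letters from RefSeq.

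The members and lists were chosen with earlier results of these data known. Named genes were the members, CYR61, each list's called genes and its 3 others of highest CPM, and the 5 genes nearest to INHBA and to INHBE; 1 called gene of the response list is not reported here, and other genes were chosen after their values were seen. Alternatives were RLE, upper quartile and library size scaling, CYR61 left out, no filter, 5 CPM in 2 libraries, DESeq2 1.42.0, limma-voom (limma 3.58.1), unrounded counts, a replicate block, removal of a GC trend (natural spline, 5 degrees of freedom), both together, each library left out, the longest transcript and a prior count of 0.5. A block with crossed numbers was added after the data were seen.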

Additional observations from a re-analysis of the deposited data

How the results depend on the processing

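RLE, upper quartile and library size scaling, leaving CYR61 out, DESeq2, limma-voom, unrounded counts and the 5 CPM filter kept the count of called genes within 1.5 times of 811; no filter gave 1677, the replicate block 391, the GC trend removed 3638, both 2187, and single libraries left out 481 (without Vector 1) to 1331 (without CYR61 2). The share of calls that were lower was 71.4%, against 61.4% with no filter, 86.4% with the block, 40.2% with the GC trend removed, 41.9% with both and 59.6% without CYR61 2. The filter of 5 CPM removed INHBA and INHBE, so 1 member was called lower. With the GC trend removed, alone or with the block, 1 member (FSTL3) was called higher. Removal alone called 2175 of the 12698 tested genes higher and 1463 lower, 28.7% in either direction. Both together called 1271 higher and 916 lower, 17.2% in either direction. Of the other activin system genes, 2 were called higher with the GC trend removed, 1 with both, and 0 to 1 with a library left out. SMAD signalling genes called lower were 0 with the block, 4 with the GC trend removed, 2 with both and 0 to 1 with a library left out. Libraries of the same number did not deviate together: the same-numbered deviations correlated at -0.71 over 10406 genes, which is 0.71 with the numbers crossed. Both within-group differences also followed GC content, at Spearman correlations of -0.73 (Vector 2 less Vector 1) and -0.78 (CYR61 1 less CYR61 2). Whether the libraries were paired by number was not tested. By the crossed correlation, Vector 1 varied with CYR61 2, and Vector 2 with CYR61 1. The reported fit counts that shared difference as spread within groups, whereas a block with crossed numbers takes it up. In the replicate block PMEPA1 (edgeR adjusted p = 0.0771) and LTBP2 (0.157) lost their calls. Crossed numbers as a block gave 5624 called genes, 44.3% of the tested genes, with 2876 lower and 2748 higher. In that setting 6 members were called lower and 2 higher, and 7 other activin system genes lower and 2 higher. Of the SMAD genes 9 were lower and 3 higher, and of the activin response genes 9 were lower and 1 higher. ACVR2A was at -0.02 with the GC trend removed and at -0.18 to 0.25 with a library left out. On the same scale, with a library left out, DAB2 ranged from -0.17 to 0.04, FKBP1A from -0.02 to 0.16, SKIL from -0.50 to 0.02, SMAD7 from -0.40 (without CYR61 2) to -0.03 (without CYR61 1) and CCN2 from 0.02 (without CYR61 2) to 0.42 (without CYR61 1). SKIL was called lower (-0.29) with the GC trend removed. Except where a value gives it, the cause was not tested. Of 10 nearest genes, 8 were shared with a prior count of 0.5. A fit without 1 library assumes that the lone library varies like the other group. Counts of 2 to 18 per library, as for INHBA and INHBE in CYR61 cells, limit how precisely the size of their changes is known.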
